A study of Mus musculus with 2 samples.

Results

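The transcription factors that drive or restrain the formation of fat cells were examined in the white fat of mice fed a high-fat diet. The 10 factors were taken from a list of regulators of adipogenesis outside the nuclear receptors: Cebpa, Cebpb, Cebpd, Klf4, Klf15, Ebf1, Zfp423, Zfp467, Gata2 and Stat5a. Each was found by its symbol, and each had 1 probe set, a group of array probes for the same transcript, that carried this symbol alone. They are 10 of the 19938 genes named in this way, and all 10 passed the intensity filter that 11399 genes passed. The Oma1_KO sample was labelled as Oma1-deficient and the Oma1_WT sample as control, both at 24 weeks of age. The mice of both samples had been fed a high-fat diet for 20 weeks, so neither genotype is free of the effect of this diet. Oma1 codes for a mitochondrial protease. The labels do not give the strain, sex, fat depot, the part of Oma1 that was disrupted or whether RNA of several mice was pooled. Total RNA was hybridised to 1 Affymetrix Mouse Gene 1.0 ST array per genotype.

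Fat cells form when a progenitor commits to the lineage and then switches on a cascade of transcription factors. In cultured preadipocytes, KLF4, C/EBPB and C/EBPD act early and lead to C/EBPA and the nuclear receptor PPARG, which keep each other and the genes of the mature fat cell active. ZFP423, ZFP467 and EBF1 act in progenitors, STAT5A carries hormone signals such as that of growth hormone, KLF15 acts late, and GATA2 holds preadipocytes back.

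With 1 array per genotype there is no test of the genotype, no p-value and no measure of the spread between animals, so every difference below has no replicate check. Levels are the authors' linear intensities, and every difference is log2(intensity + 1) in the Oma1_KO array minus that in the Oma1_WT array. Differences were described by a fixed size of 1.5-fold, which is 0.58 on the log2 scale. As a technical yardstick, the SD of the Oma1_KO minus Oma1_WT difference within genes was 0.17 on the log2 scale. It was computed among probe sets of the same gene, over 545 genes with 2 probe sets. It covers disagreement between probe sets hybridised with the same RNAs, not the spread between mice. The intensity of a probe set depends on its probes, so levels of different factors are not set against each other.

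The arrays were close as a whole, with a Pearson r of 0.99 over the 35512 probe sets, a description across probe sets that share the same 2 arrays. Oma1 itself read 155 in the Oma1_KO array and 187 in the Oma1_WT array, a difference of -0.27 that does not check the genotype, since the disrupted part is not stated. The tissue label was met by fat cell genes: Adipoq, which encodes adiponectin, read 5255 in the Oma1_KO array and 6832 in the Oma1_WT array, and Fabp4, a fatty acid carrier, 6813 in Oma1_KO and 7685 in Oma1_WT. In the Oma1_KO array the summed intensity of 8 liver markers was 11201, against 9840 in the Oma1_WT array. That sum hides opposite changes in its brightest members, Alb (4523 in Oma1_KO, 1692 in Oma1_WT) and Cyp2e1 (3237 in Oma1_KO, 6384 in Oma1_WT). The summed intensity was also higher for 10 macrophage markers (30286 in Oma1_KO, 26297 in Oma1_WT) and 10 mast cell markers (1929 in Oma1_KO, 1207 in Oma1_WT). It was lower for 12 endothelial markers (12305 in Oma1_KO, 15311 in Oma1_WT), 8 mesothelial markers (1662 in Oma1_KO, 2461 in Oma1_WT) and 7 B cell markers (679 in Oma1_KO, 951 in Oma1_WT). No marker read 0 in either array, where the lowest intensity of any probe set was 8. In whole tissue, fewer cells of a type and less RNA per cell cannot be told apart.

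None of the 10 factors differed by 1.5-fold between the arrays. Among all 11399 genes above the filter 2.97% did, with 1.23% higher and 1.74% lower in the Oma1_KO array, so a count of 0 among 10 is near this background. Of the factors 4 were higher and 6 lower in the Oma1_KO array, with differences from -0.39 to 0.22 and a median of -0.07. Over all genes above the filter 36.6% were higher and 62.3% lower, with a median of -0.06, so the factors as a group lay where most genes lay. The difference was at least as large as the SD between probe sets for 5 of the 10 factors, as it was for 41.0% of all genes. Only Zfp423 passed 2 such SDs, a size that 13.1% of all genes reached.

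**Figure D1:**
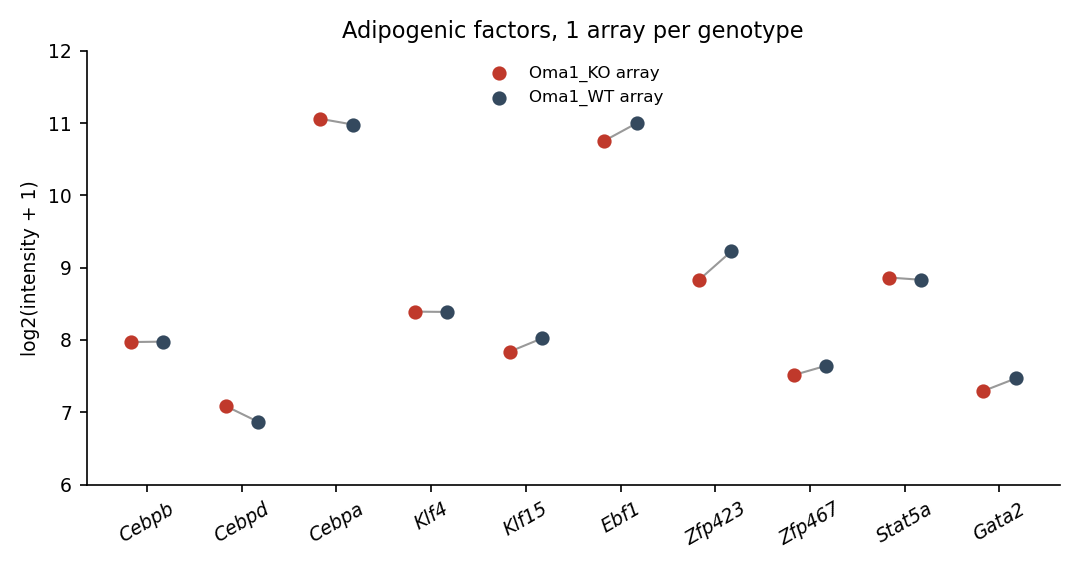
Level of each adipogenic factor as log2(intensity + 1), with the Oma1_KO array as the red point on the left of each pair and the Oma1_WT array as the dark point on the right (1 array each, no error bars). The pairs of Cebpb, Klf4 and Stat5a are nearly level, Zfp423 has the steepest line, at 455 in Oma1_KO and 598 in Oma1_WT on the linear scale, and Cebpd has the steepest line in the other direction.

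The largest difference among the factors was that of Zfp423, a zinc finger protein of committed preadipocytes that makes them responsive to bone morphogenetic proteins (BMPs). Zfp423 read 455 in the Oma1_KO array and 598 in the Oma1_WT array, which puts the Oma1_KO level at 76.1% of the Oma1_WT level and the log2 difference at -0.39. Of the 11399 genes, 700 (6.14%) had a still lower difference. It ranged from -0.39 to -0.32 over the processing alternatives tried, so in each of them it was lower in Oma1_KO and within 1.5-fold. An upstream stretch of Zfp423, before the first of its listed starts, is shown because this factor moved the most. It holds a match to a C/EBP-type pattern and several to a KLF-type pattern. These patterns are named for families to which 5 of the 10 factors belong. In this stretch, as in each printed below, capitals mark matches to the patterns searched.

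Zfp423 upstream, GRCm38.p6 chr8:87959596-87959845, minus strand: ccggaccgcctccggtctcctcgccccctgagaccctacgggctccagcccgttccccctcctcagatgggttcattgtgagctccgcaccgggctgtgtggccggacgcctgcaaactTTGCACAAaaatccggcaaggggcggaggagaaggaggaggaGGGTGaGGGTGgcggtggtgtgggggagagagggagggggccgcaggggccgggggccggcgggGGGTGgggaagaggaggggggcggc

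The stretch covers the 250 bases before the first of the 2 gene starts that RefSeq lists for Zfp423. Both strands were searched. The C/EBP-type pattern was TTGCNNAA and the KLF-type pattern was CACCC. The E-box was spelled as CACGTG, the STAT-type pattern as TTCNNNGAA, and the GATA-type pattern as AGATAA. The CCAAT box and the TATA box, spelled as TATAAA, were searched as well. No pattern contains another. The C/EBP-type match of Zfp423 started 131 bases before the gene start, written as -131, and 9.56% of the 32851 upstream stretches of the same length in the table hold such a match. Its 3 KLF-type matches started at -89, -83 and -25, and 52.0% of all stretches hold at least 1. The stretch before the other listed start of Zfp423 held 3 KLF-type matches but no C/EBP-type match. A match is a description of the letters, and no binding was measured here.

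Of 10 measured genes of the BMP pathway that acts on ZFP423, 8 were lower, 2 higher and 0 past 1.5-fold, beside 62.3% of all genes lower. Their median was -0.17 beside -0.06 for all genes, and 7 or 8 were lower over the alternatives. Only 8 of the 10 passed the filter to which the 62.3% refers, and their median was also -0.17. Below the filter were Bmp2 (74 in Oma1_KO, 83 in Oma1_WT) and Bmpr1b (18 in Oma1_KO, 17 in Oma1_WT), which was 1 of the 2 higher genes. Bmp7, a ligand, read 105 in the Oma1_KO array and 137 in the Oma1_WT array (-0.38), and the ligand Bmp4 read 257 in Oma1_KO and 297 in Oma1_WT (-0.21). The receptor genes Bmpr1a and Bmpr2 differed by -0.17 and -0.18, and Smad5, which carries the signal to the nucleus, by -0.18. Ccn5, whose protein is known to hold ZFP423 in the cytoplasm, went the other way, at 772 in Oma1_KO and 714 in Oma1_WT (0.11). Zfp521, a close relative of Zfp423 that restrains adipogenesis, read 222 in Oma1_KO and 209 in Oma1_WT (0.09). Markers of progenitors and fibroblasts, the cells in which Zfp423 is best known, split 4 higher and 5 lower with a median of -0.04, which was 0.02 after centring on the median. Their summed intensity was 18711 in the Oma1_KO array and 18589 in the Oma1_WT array. Among them Dpp4, a marker of early progenitors, read 362 in Oma1_KO and 529 in Oma1_WT (-0.55), while Lum, a matrix proteoglycan, read 1947 in Oma1_KO and 1512 in Oma1_WT (0.36).

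Ebf1, an early B cell factor that promotes adipogenesis and is also needed to form B cells, had the next lowest difference. It read 1728 in the Oma1_KO array and 2044 in the Oma1_WT array, a difference of -0.24, and 1925 genes (16.9%) had a lower one. Its relatives did not all lie on the same side, and the median of the 4 family members took both signs over the alternatives. Ebf3 was also lower, at 438 in Oma1_KO and 487 in Oma1_WT (-0.15), but Ebf2, which favours the brown and beige fat programme and whose activity ZFP423 is known to restrain, was higher at 402 in Oma1_KO and 347 in Oma1_WT (0.21). Ebf4 was below the filter, at 64 in Oma1_KO and 61 in Oma1_WT. Beside Ebf1, 6 of 7 B cell markers were lower, with a median of -0.26, but only 3 passed the filter, over which it was -0.51. Cd79a, a subunit of the B cell receptor, was the only one past 1.5-fold, at 75 in Oma1_KO and 163 in Oma1_WT, with a size made uncertain by an Oma1_KO level below the filter. Their part in the Ebf1 value was not tested. The upstream stretch of Ebf1 is shown beside that of Zfp423 because these were the 2 factors with the lowest differences.

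Ebf1 upstream, GRCm38.p6 chr11:44617850-44618099, plus strand: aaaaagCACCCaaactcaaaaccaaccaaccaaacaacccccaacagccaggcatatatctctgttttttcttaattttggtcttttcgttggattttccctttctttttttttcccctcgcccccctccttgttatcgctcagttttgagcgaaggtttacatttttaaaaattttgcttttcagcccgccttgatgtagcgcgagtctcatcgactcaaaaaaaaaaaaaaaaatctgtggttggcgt

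This stretch, before the first of 2 listed starts, had a G and C content of 40.0%, against 71.6% for that of Zfp423 and a median of 52.4% over all stretches. It held 1 KLF-type match, at -244, and none of the other patterns marked in capitals, which says only that those letters are not in this window. The pair of factors with the lowest differences thus shared a KLF-type match, which about as many stretches hold as lack. It does not set them apart from the other factors. Cebpa, Cebpb, Klf15, Zfp467, Gata2 and Stat5a also held at least 1 in a listed stretch, and Klf4 held none.

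Zfp467, a zinc finger protein known in mouse marrow stromal cells to favour fat over bone formation, was within the probe set SD. It read 182 in the Oma1_KO array and 199 in the Oma1_WT array, a difference of -0.13. Zfp423, Ebf1 and Zfp467 were lower in each processing alternative tried, and 62.3% of all genes were lower in the deposited values, so their shared side is not a result about progenitor-stage factors.

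The C/EBP genes that start the cascade were level or slightly higher. Cebpb read 250 in the Oma1_KO array and 251 in the Oma1_WT array, a step of 1 unit in values rounded to whole numbers. Its difference of -0.01 turned to at most 0.06 under quantile normalisation, loess and centring, so no direction is given for it. Cebpd read 135 in the Oma1_KO array and 116 in the Oma1_WT array, a difference of 0.22 that was the highest among the factors. It was the dimmest of the factors' probe sets, where a given step in intensity makes a larger log2 difference, and 1120 genes had a higher one. Cebpa, which maintains the mature fat cell, read 2132 in the Oma1_KO array and 2019 in the Oma1_WT array (0.08), a difference under the probe set SD of 0.17. Cebpa is also abundant in liver, and liver markers went both ways. Of 8 measured, 6 were higher, 5 of them past 1.5-fold, with Alb, which encodes albumin, at 4523 in Oma1_KO and 1692 in Oma1_WT. The other 2 were lower. Cyp2e1 was past 1.5-fold, at 3237 in Oma1_KO and 6384 in Oma1_WT (-0.98), and Tat differed by -0.31. The part of liver RNA in the Cebpa value was not tested.

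Cebpa upstream, GRCm38.p6 chr7:35119043-35119292, plus strand: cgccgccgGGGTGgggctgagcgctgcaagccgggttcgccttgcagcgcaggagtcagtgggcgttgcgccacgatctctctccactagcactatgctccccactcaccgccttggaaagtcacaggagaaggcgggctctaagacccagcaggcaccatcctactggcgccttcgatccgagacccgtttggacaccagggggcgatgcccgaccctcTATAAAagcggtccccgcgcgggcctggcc

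The stretch upstream of Cebpa is shown because this factor is the end point of the cascade and holds a TATA box match, at -30, which Cebpb lacked in this window. A TATA box match was present in 12.4% of all stretches, and Cebpa also held a KLF-type match at -242. Cebpd had no entry in the table.

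In the rest of the C/EBP family Cebpe, of granulocytes, was below the filter at 81 in Oma1_KO and 72 in Oma1_WT. Cebpg, a partner in dimers, read 454 in Oma1_KO and 495 in Oma1_WT (-0.12). Ddit3, a stress-induced member that blocks the others, read 225 in Oma1_KO and 205 in Oma1_WT (0.13). Of the 6 family members 4 were higher and 2 lower with none past 1.5-fold, and the median of 0.11 stayed above 0 in every alternative. Over the 5 above the filter the median was 0.08, the value of Cebpa, which is under the probe set SD.

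**Figure D2:**
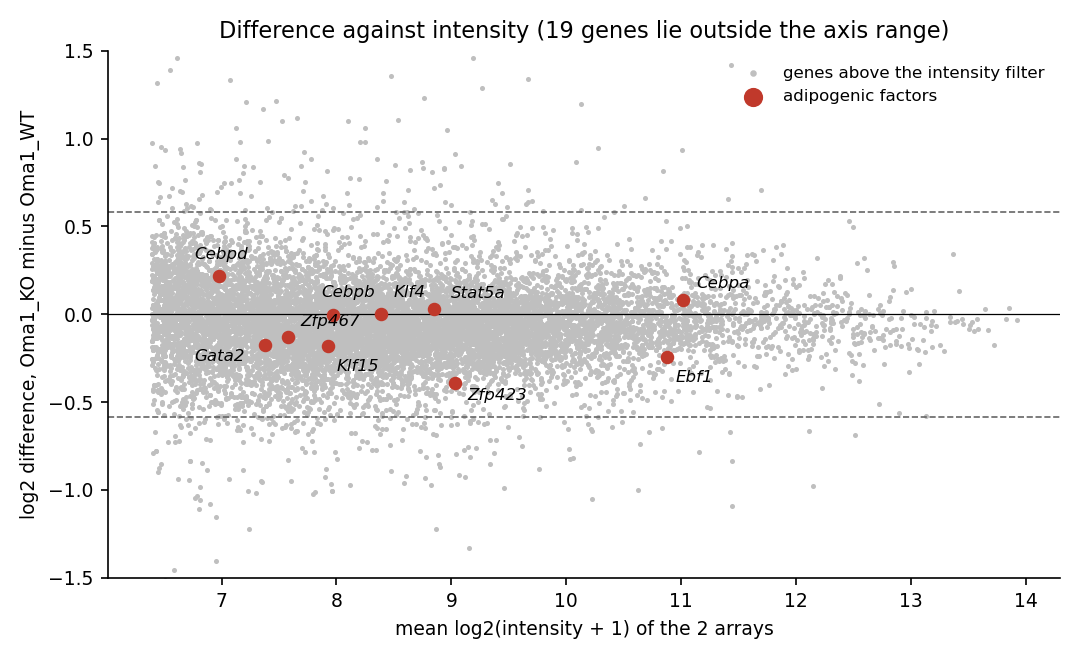
Log2 difference (Oma1_KO minus Oma1_WT) against the mean log2(intensity + 1) of both arrays for the 11399 genes above the intensity filter (grey) and the 10 adipogenic factors (red, named), with dashed lines at 1.5-fold. All 10 factors lie between the dashed lines, and Zfp423, at -0.39, lies nearest to one. The axis was limited to a size of 1.5, which leaves 19 genes out of view.

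Downstream, genes of the mature fat cell that receive C/EBP or PPARG input were mostly a little lower. Of 16 measured, 14 were lower, beside 62.3% of all genes, 2 higher and 0 past 1.5-fold, with a median of -0.10 beside -0.06 for all genes, and the median lay between -0.10 and -0.04 over the alternatives. Adipoq was the lowest at -0.38. Pnpla2, the lipase that starts triglyceride breakdown, read 5540 in Oma1_KO and 6769 in Oma1_WT (-0.29). Cidec, a lipid droplet protein, read 9316 in Oma1_KO and 10771 in Oma1_WT (-0.21), and Agpat2, an enzyme of triglyceride synthesis, 7959 in Oma1_KO and 9162 in Oma1_WT (-0.20). Pparg, the partner of Cebpa in the mature cell, read 3721 in the Oma1_KO array and 4050 in the Oma1_WT array (-0.12). Cebpa and Pparg thus lay on opposite sides of 0, each by less than the probe set SD.

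Acute-phase genes, which C/EBPB and C/EBPD are known to activate, went both ways: 4 of 10 were higher and 6 lower. Lcn2, an iron-binding secreted protein, read 2527 in Oma1_KO and 1784 in Oma1_WT (0.50), while Saa3 read 926 in Oma1_KO and 1270 in Oma1_WT (-0.46) and Nos2, the inducible nitric oxide synthase, 101 in Oma1_KO and 139 in Oma1_WT (-0.46). Orm2, a plasma acid glycoprotein, was the only member past 1.5-fold, at 98 in Oma1_KO and 342 in Oma1_WT. The median of the 10 was -0.04, took both signs over the alternatives, and was -0.42 over the 7 above the filter. Macrophages also express Cebpb, and beside it 8 of 10 macrophage markers were higher, with a median of 0.23. Their part in the Cebpb value was not tested.

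Of the Krüppel-like factors, Klf4 was level and Klf15 slightly lower. Klf4, which in culture helps to switch on Cebpb, read 335 in the Oma1_KO array and 334 in the Oma1_WT array (0.00). Egr2, which acts together with KLF4 on Cebpb, was also near level, at 505 in Oma1_KO and 488 in Oma1_WT (0.05). Klf4 is also known in endothelial and smooth muscle cells. Of 12 endothelial markers 11 were lower, with a median of -0.36, and of 8 smooth muscle and pericyte markers 4 were higher and 4 lower, with a median of 0.20, though their summed intensity was lower, at 8298 in Oma1_KO and 9199 in Oma1_WT. Their part in the Klf4 value was not tested.

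Klf15, which promotes late adipogenesis and the use of amino acids, read 228 in the Oma1_KO array and 259 in the Oma1_WT array, a difference of -0.18 that stayed between -0.18 and -0.12 over the alternatives. Genes tied to it were lower in 5 of 6 cases, beside 62.3% of all genes, with a median of -0.17 beside -0.06. Over the 5 above the filter the median was -0.09. Prodh, the first enzyme of proline breakdown, read 189 in Oma1_KO and 244 in Oma1_WT (-0.37), and Gpt, an alanine aminotransferase, 413 in Oma1_KO and 492 in Oma1_WT (-0.25). Slc2a4, the insulin-responsive glucose transporter, read 786 in Oma1_KO and 839 in Oma1_WT (-0.09). Bcat2, which starts the breakdown of branched-chain amino acids, went the other way past 1.5-fold, at 1087 in Oma1_KO and 724 in Oma1_WT (0.59), and did not reach that size with a pseudocount of 16. Glucocorticoids induce Klf15 in several tissues, and 7 of 10 other glucocorticoid-induced genes were lower, near the 62.3% of all genes, with a median of -0.13. Mt1 and Mt2, metallothioneins among them, took both signs over the alternatives, and under scaling the split reached 5 higher and 5 lower. Zbtb16, a transcription factor, was the only one past 1.5-fold, at 639 in Oma1_KO and 1178 in Oma1_WT (-0.88), and Tsc22d3 read 563 in Oma1_KO and 703 in Oma1_WT (-0.32), while Angptl4, an inhibitor of lipoprotein lipase, read 4235 in Oma1_KO and 3533 in Oma1_WT (0.26).

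Klf15 upstream, GRCm38.p6 chr6:90462326-90462575, plus strand: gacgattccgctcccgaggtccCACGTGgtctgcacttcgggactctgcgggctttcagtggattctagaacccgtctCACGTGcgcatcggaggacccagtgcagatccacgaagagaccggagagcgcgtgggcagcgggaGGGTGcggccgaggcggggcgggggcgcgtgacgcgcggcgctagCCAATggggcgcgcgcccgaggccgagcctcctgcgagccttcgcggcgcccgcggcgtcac

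The stretch upstream of Klf15 is shown because it was the only one among the factors with more than 1 E-box, the letters that clock proteins and other helix-loop-helix factors are known to bind. Its 2 CACGTG matches started at -228 and -172, and 6.02% of all stretches hold at least 1. It also held a CCAAT match at -62 (33.9% of all stretches) and a KLF-type match at -107. Klf4 held 1 E-box, at -182.

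Across the KLF family, 7 of 17 genes were higher and 10 lower with none past 1.5-fold. The median of -0.05 became 0.02 under loess and under quantile normalisation, so the family as a whole had no set direction. Klf14 and Klf11 were the highest, with Klf14 at 292 in Oma1_KO and 226 in Oma1_WT (0.37) and Klf11 at 415 in Oma1_KO and 331 in Oma1_WT (0.33). Klf12 was the lowest, at 56 in Oma1_KO and 79 in Oma1_WT, but below the filter. Among members that act in adipogenesis, Klf5, which drives it, read 97 in Oma1_KO and 102 in Oma1_WT (-0.07), Klf6 read 885 in Oma1_KO and 1041 in Oma1_WT (-0.23), and Klf2, which restrains it, 298 in Oma1_KO and 279 in Oma1_WT (0.09).

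**Figure D3:**
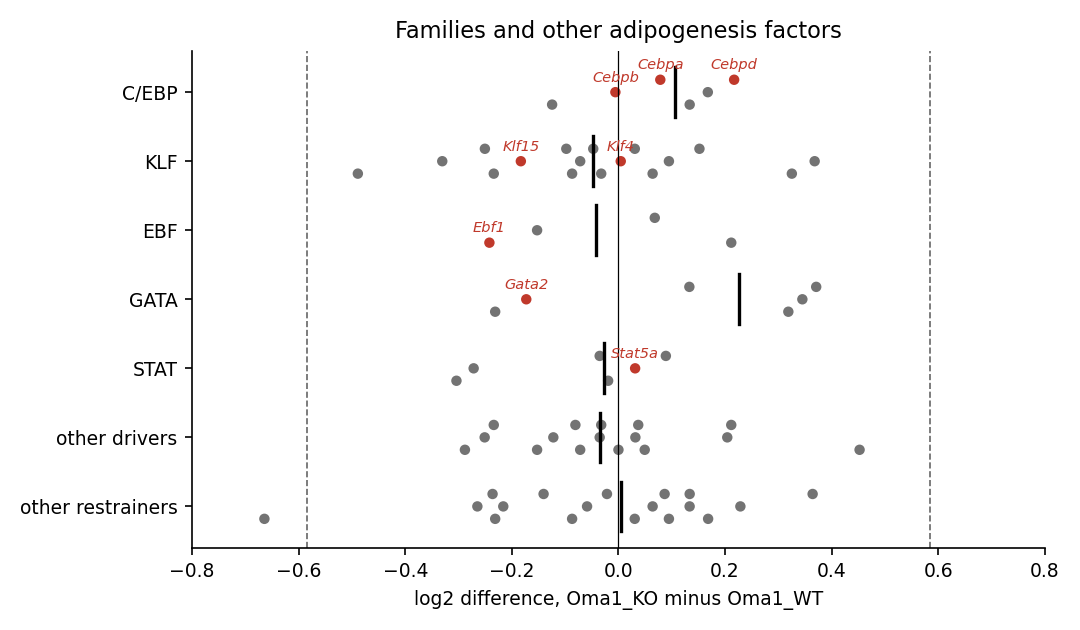
Log2 difference (Oma1_KO minus Oma1_WT) of each measured gene in the 5 transcription factor families and in the lists of other drivers and other restrainers of adipogenesis, with the adipogenic factors in red, black bars at the list medians and dashed lines at 1.5-fold. Sox9, at -0.66 among the other restrainers, is the only point outside the dashed lines.

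Stat5a, which growth hormone and prolactin activate and which promotes adipogenesis, was level. It read 465 in the Oma1_KO array and 455 in the Oma1_WT array, a difference of 0.03. Its near-identical neighbour Stat5b read 525 in Oma1_KO and 538 in Oma1_WT (-0.04), a value that turned positive under the scaling alternatives. Probes for such similar transcripts may share signal, so the separate levels of Stat5a and Stat5b are uncertain. In the STAT family 2 of 6 were higher and 4 lower with none past 1.5-fold, and the median of -0.03 became at most 0.03, with up to 4 higher, under the scaling alternatives. Stat3, which interleukins and leptin activate, read 2156 in Oma1_KO and 2027 in Oma1_WT (0.09), and Stat2, of interferon signalling, 385 in Oma1_KO and 465 in Oma1_WT (-0.27).

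The receptor, kinase and target genes measured for growth hormone to STAT5 signalling were lower in 6 of 8 cases, beside 62.3% of all genes. Their median was -0.19 beside -0.06 for all genes. The growth hormone receptor gene Ghr read 6121 in Oma1_KO and 7047 in Oma1_WT (-0.20), and Jak2, the kinase bound to it, 455 in Oma1_KO and 508 in Oma1_WT (-0.16). Among targets, Cish, a feedback inhibitor, was past 1.5-fold at 78 in Oma1_KO and 140 in Oma1_WT (-0.84). Its Oma1_KO level lay below the 83 of the filter, which leaves the size uncertain. Igf1, an insulin-like growth factor, read 3015 in Oma1_KO and 3551 in Oma1_WT (-0.24), and Aox1, an aldehyde oxidase, 944 in Oma1_KO and 1251 in Oma1_WT (-0.41). Pim1, a kinase, read 345 in Oma1_KO and 335 in Oma1_WT (0.04). Socs3, the other higher gene, differed by 0.16 over 2 probe sets and took both signs over the alternatives, from -0.05 to 0.23.

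Gata2, the only factor of the 10 that restrains adipogenesis, read 156 in the Oma1_KO array and 176 in the Oma1_WT array. Its difference of -0.17 was about equal to the probe set SD, and 3061 genes (26.9%) had a lower one. Gata3, which acts with GATA2 in preadipocytes, was below the filter at 45 in Oma1_KO and 53 in Oma1_WT. The other 4 members were higher, Gata6, a factor of mesodermal and endodermal tissues, with 487 in Oma1_KO and 444 in Oma1_WT (0.13), Gata4 with 96 in Oma1_KO and 74 in Oma1_WT (0.37) and Gata5 with 115 in Oma1_KO and 92 in Oma1_WT (0.32), both dim, and Gata1, below the filter. Gata2 is also a factor of mast cells and endothelium, whose markers lay on opposite sides. Of 10 mast cell markers 8 were higher, with a median of 0.40, but only 5 passed the filter, over which it was 0.61 with 3 past 1.5-fold. Cpa3, a protease, read 663 in Oma1_KO and 282 in Oma1_WT. The receptor gene Kit, shared with other blood cells, read 187 in Oma1_KO and 212 in Oma1_WT. The endothelial marker Robo4 read 347 in Oma1_KO and 544 in Oma1_WT (-0.65), and mesothelial markers were lower in 7 of 8 cases. The part of these cells in the Gata2 value was not tested.

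Other factors of adipogenesis lay on both sides as well. Of 16 further drivers 6 were higher, 9 lower and 1 equal, and 0 were past 1.5-fold. Their median of -0.03 became at most 0.03 under the scaling alternatives. Bcl6, a repressor needed for adipogenesis, had the highest difference, at 597 in Oma1_KO and 436 in Oma1_WT (0.45), and Srebf1, the factor of fatty acid synthesis, read 1590 in Oma1_KO and 1380 in Oma1_WT (0.20). Zeb1 read 583 in Oma1_KO and 694 in Oma1_WT (-0.25). Of 18 further restrainers 9 were higher and 9 lower, with a median of 0.00. Sox9, a progenitor and cartilage factor, was the only one past 1.5-fold, at 158 in Oma1_KO and 251 in Oma1_WT (-0.66). Foxo1, which insulin keeps out of the nucleus, read 699 in Oma1_KO and 840 in Oma1_WT (-0.26), and Gli2, of hedgehog signalling, read 111 in Oma1_KO and 86 in Oma1_WT (0.36).

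**Figure D4:**
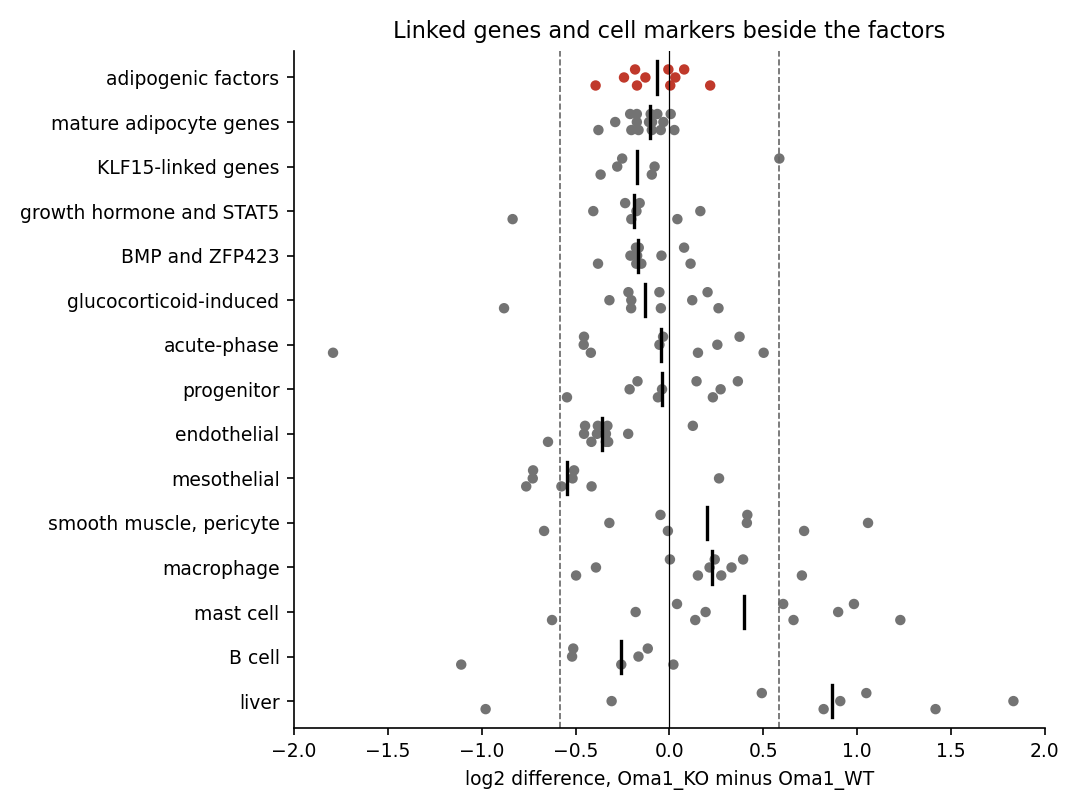
Log2 difference (Oma1_KO minus Oma1_WT) of each measured gene in the 10 adipogenic factors (red), in lists of genes linked to them and in marker lists of cell types, with black bars at the list medians and dashed lines at 1.5-fold. The factors and the mature adipocyte genes lie within 1.5-fold, while liver and mast cell markers lie mostly to the right, with medians of 0.87 and 0.40 over all measured markers, dim ones included, and endothelial and mesothelial markers mostly to the left, with medians of -0.36 and -0.55.

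**Figure D5:**
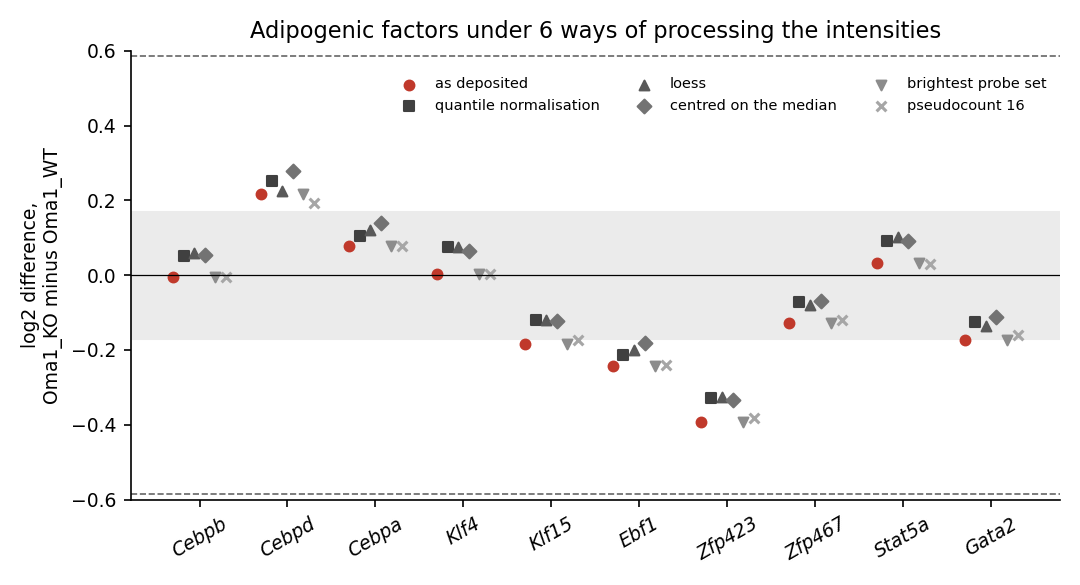
Log2 difference (Oma1_KO minus Oma1_WT) of each adipogenic factor from the deposited intensities (red) and under 5 alternatives (grey), with a grey band of 1 SD between probe sets (0.17) on either side of 0 and dashed lines at 1.5-fold. Cebpb alone has points on both sides of 0, and Zfp423 and Cebpd lie outside the band under each alternative, as does Ebf1.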

How the data were processed

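The deposited table holds 1 intensity per probe set and array for 35512 probe sets. The authors deposited linear intensities rounded to whole numbers, with a median of 83 in each array. How background, summary and scaling were handled is not stated in the sources used here. Per the labels' protocols, RNA was extracted with Trizol and biotin-labelled. Gene names came from GEO's platform annotation, with 1 symbol for 21789, several for 1621 and none for 12102. All 10 factors matched the symbols of RefSeq GRCm38.p6 by gene identifier. Probe sets of a gene were averaged as log2(intensity + 1), where the pseudocount of 1 understates the change of dim genes. Genes were counted if their mean over both arrays reached the median of all probe sets (intensity 83). No test was possible with 1 array per group, and precision is limited by the number of arrays. The factors and gene lists were chosen with earlier results of these data known. The genes named are drawn from the 10 factors and their families, Oma1, Pparg and up to 4 genes per list with the largest differences above the filter. Others, named as list members with a known role or as examples of a marker, were chosen after their values were seen. Not every gene that the first rule covers was named. Stat4 (-0.30) and the liver marker Apoa1 (1.83) are among those left out. Genes of the lists without a probe set of their single symbol were not analysed here. Alternatives were quantile normalisation, loess (span 0.3), centring on the median of genes above the filter, a gene's brightest probe set, a pseudocount of 16 and other filters. The procedure was tested on simulated data with planted differences far larger than those of the factors. That test does not cover differences as small as those reported for the factors. Upstream sequences are from RefSeq GRCm38.p6, where 9 of the 10 factors had an entry. Python 3.11.15, numpy 2.4.6, pandas 2.3.3, statsmodels 0.14.6 and matplotlib 3.10.9 were used.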

Additional observations from a re-analysis of the deposited data

How the results depend on the processing

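No paired analysis was possible because each genotype has 1 array, and no array could be left out. Over the 5 alternatives run for the factors, 0 factors passed 1.5-fold, and 0 of 50 recomputed differences moved by as much as the SD between probe sets. Part of that count was fixed in advance. Each factor had 1 probe set, so taking the brightest one could not change it. Centring moved every gene by the same 0.06, less than this SD. These 2 alternatives are therefore no check on the factors' differences. Only Cebpb took both signs, from -0.01 to 0.06. The scalings moved the median of all genes by at most 0.06. The 1.5-fold counts over all genes, 140 higher and 198 lower, had a higher share of 41.4%, which was 53.3% (168 and 147) after quantile normalisation, 51.7% (165 and 154) after loess and 56.7% (182 and 139) after centring, so the majority direction changed with the scaling. The 2-fold lower count of 28 became 18 after centring and 17 with a pseudocount of 16. With the filter at the upper quartile the 1.5-fold counts became 52 higher and 81 lower and the 2-fold counts of 31 higher and 28 lower became 11 and 7, as fewer genes were counted. With no filter the 1.5-fold higher count became 219, as more were. Of 264 recomputed list medians and counts, 8 moved. The medians of 6 lists took both signs: other drivers, the KLF, EBF and STAT families, acute-phase genes and progenitor markers. Dim probe sets such as that of Cebpd may lie near background, which no detection call defines here. Cebpd itself read above the filter intensity in both arrays.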
